A study of Mus musculus with 9 samples.

Results

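Toll-like receptors, their co-receptor Cd14 and their adaptor Myd88 were followed in mouse retinas. The 10 genes were taken by symbol from a table of 22337 genes, which held each of them in 1 row: Tlr1, Tlr2, Tlr3, Tlr4, Tlr6, Tlr7, Tlr9, Tlr13, Myd88 and Cd14. The libraries came from 3 groups of 3 retina samples, collected at postnatal day 28 (P28). WT retinas were those of untreated C57 BL/6J mice. The other groups were retinas of rd10 mice, which carry a mutation in Pde6b, a subunit of the rod phosphodiesterase, and lose their photoreceptors. In both rd10 groups, each eye had received 1 μL into the vitreous at P14 and at P21, normal saline (NS) for the NS-treated mice and extracellular vesicles from human umbilical cord mesenchymal stem cells (MSC-EVs) for the MSC-EVs-treated mice. WT eyes were not injected, so genotype and injection cannot be told apart between WT and either rd10 group. How many animals went into a library, and their sex, are not given in the sources used here, so p-values measure the spread between these libraries.

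Toll-like receptors are proteins of innate immunity that recognise molecules of microbes and of damaged cells. Tlr2, which pairs with Tlr1 or Tlr6, and Tlr4 sit at the cell surface and bind lipopeptides and lipopolysaccharide, the latter handed over by Cd14. Tlr3, Tlr7, Tlr9 and Tlr13 sit in endosomes and bind nucleic acids: double-stranded RNA, single-stranded RNA, unmethylated CpG DNA and bacterial ribosomal RNA. All of these receptors except Tlr3 signal through Myd88 to NF-kB and cytokine genes, and Tlr3 uses Ticam1 instead. In the retina they are best known from microglia, the resident macrophages, and Tlr3 has also been described in other retinal cells.

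Estimated counts summed to between 19491721 and 62532357 per library, the deepest being MSC-EVs replicate 3. The rod markers Gnat1, Sag, Pde6a, Pde6b, Nrl and Cnga1 summed to 27080 to 29760 CPM (counts scaled to library size) in WT and to 6570 to 9567 CPM in rd10, so the tissue carried its defining transcripts in every library. The 4 Y-linked genes Kdm5d, Uty, Ddx3y and Eif2s3y summed to 183 and 189 CPM in MSC-EVs replicates 1 and 2 and to between 0.237 and 0.501 CPM in the other 7 libraries. The MSC-EVs libraries therefore differed among themselves in a way the NS libraries did not. As no NS library had a high Y-linked sum, this difference is also partly confounded with the treatment. Their summed microglia and macrophage markers also spread more widely, from 404 CPM in replicate 3 to 717 CPM in replicate 2. CPM were scaled by TMM factors, and the groups were compared by edgeR's quasi-likelihood test with Benjamini-Hochberg adjustment over all genes tested. A gene was called at an adjusted p under 0.05, and SE stands for the standard error of its log2 fold change.

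Each of the 8 genes that passed the filter on low counts was raised in NS-treated rd10 against WT, by 1.55-fold (Myd88) to 16.1-fold (Tlr7), and none was lower. Among all 14644 genes tested, 61.3% were called, 31.2% as higher. With an added limit of at least 1 on the absolute log2 fold change, 7 of the 8 remained, all but Myd88, against 9.16% of all genes called as higher. All 10 genes, Tlr1 and Tlr6 included, had every NS library above every WT library, which was so for 33.7% of the genes tested (66.9% lay apart in either direction). These shares are the background against which the counts are to be read, since most of the transcriptome differed between the groups. Tlr4, Tlr7, Tlr9 and Tlr13 had only 2 to 14 counts in the WT libraries and passed the filter through the NS group, where they are high, so the count of 8 of 8 is no support for a direction. With at least 10 counts required in every library, 4 genes were tested (Tlr2, Tlr3, Myd88 and Cd14) and 4 were called. The share of all genes called under that filter is not given here, so nothing is read from this count.

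Of the surface receptors, Tlr2 had 0.54, 0.58 and 0.80 CPM in WT and 10.5, 12 and 5.36 CPM in NS-treated rd10. The lowest NS library was thus several times above the highest WT library, although NS replicate 3 lay well under the others. The fitted change of Tlr2 was a log2 fold of 3.86 (SE 0.347, adjusted p = 5.7e-06). Tlr2 lies on chromosome 3 from 83836272 to 83841767 on the minus strand (GRCm38, GENCODE M21).

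Tlr4, the lipopolysaccharide receptor, had 0.40, 0.54 and 0.35 CPM in WT and 4.43, 3.09 and 2.33 CPM in NS-treated rd10. WT values rested on 7 to 12 counts per library, so the fold is less precise than its level in rd10. The log2 fold change was 2.92 (SE 0.335, adjusted p = 1.24e-05). The gene lies on chromosome 4 from 66827584 to 66930284 on the plus strand.

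Cd14, which carries lipopolysaccharide to Tlr4 and also assists other receptors, had 1.08, 0.72 and 0.85 CPM in WT and 9.40, 7.84 and 7.74 CPM in NS-treated rd10. The NS libraries were close together. Cd14, on chromosome 18, changed by a log2 fold of 3.23 (SE 0.203, adjusted p = 7.68e-08).

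Among the endosomal receptors, Tlr7 had 0.31, 0.40 and 0.55 CPM in WT and 8.45, 6.86 and 5.08 CPM in NS-treated rd10. Its log2 fold change of 4.01 (SE 0.288, adjusted p = 2.38e-07) was the largest fitted among the 8. Its 95% interval, 3.38 to 4.64, overlapped those of Tlr2, Tlr9, Tlr13, Cd14 and Tlr4, so no order among these is given. Tlr7 lies on chromosome X from 167304929 to 167330558 on the minus strand.

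Tlr9, the receptor for CpG DNA, had 7, 3 and 2 counts in the WT libraries, or 0.31, 0.13 and 0.10 CPM. In NS-treated rd10 it had 3.72, 1.37 and 1.51 CPM, with replicate 1 far above the others. The log2 fold change was 3.56 with the largest error of the 8 (SE 0.56, adjusted p = 0.000226). It was 2.91 without NS replicate 1 (adjusted p = 0.000194) and 4.19 without WT replicate 1 (adjusted p = 0.000612). Tlr9 lies on chromosome 9 from 106222598 to 106226883 on the plus strand.

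Tlr13, which recognises bacterial ribosomal RNA and has no human counterpart, had 0.27, 0.40 and 0.70 CPM in WT and 4.56, 4.90 and 2.56 CPM in NS-treated rd10. The lowest NS library, replicate 3, was still well above the highest WT library. The log2 fold change was 3.14 (SE 0.364, adjusted p = 1.45e-05). Tlr13 lies on chromosome X from 106143204 to 106160493 on the plus strand.

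Tlr3 differed from the other receptors in its level. It had 5.34, 5.60 and 5.01 CPM in WT, on 100 to 125 counts, and 24.1, 18.6 and 15.9 CPM in NS-treated rd10. Its log2 fold change was 1.88 (SE 0.157, 95% interval 1.54 to 2.22, adjusted p = 1.13e-06), and the upper end of that interval lay under the lower ends for Tlr2, Tlr7, Tlr9, Tlr13 and Cd14. Tlr3 lies on chromosome 8 from 45395665 to 45411080 on the minus strand, and an antisense gene, Gm45542, shares 5.3% of its 50-base stretches.

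Myd88, the adaptor shared by most of the receptors, changed least. It had 9.92, 11.1 and 10.8 CPM in WT and 16.4, 14.1 and 18.8 CPM in NS-treated rd10. The groups did not overlap, and the log2 fold change was 0.63 (SE 0.116, 95% interval 0.38 to 0.88, adjusted p = 0.000513). That interval lay wholly under those of the other 7 genes tested. Myd88 lies on chromosome 9 from 119335934 to 119341411 on the minus strand, where Slc22a14 and Acaa1a overlap it. Acaa1a, on the other strand, shares 7.4% of its 50-base stretches, and since no source used here says that strand was used in counting, reads there cannot be told apart.

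**Figure D1:**
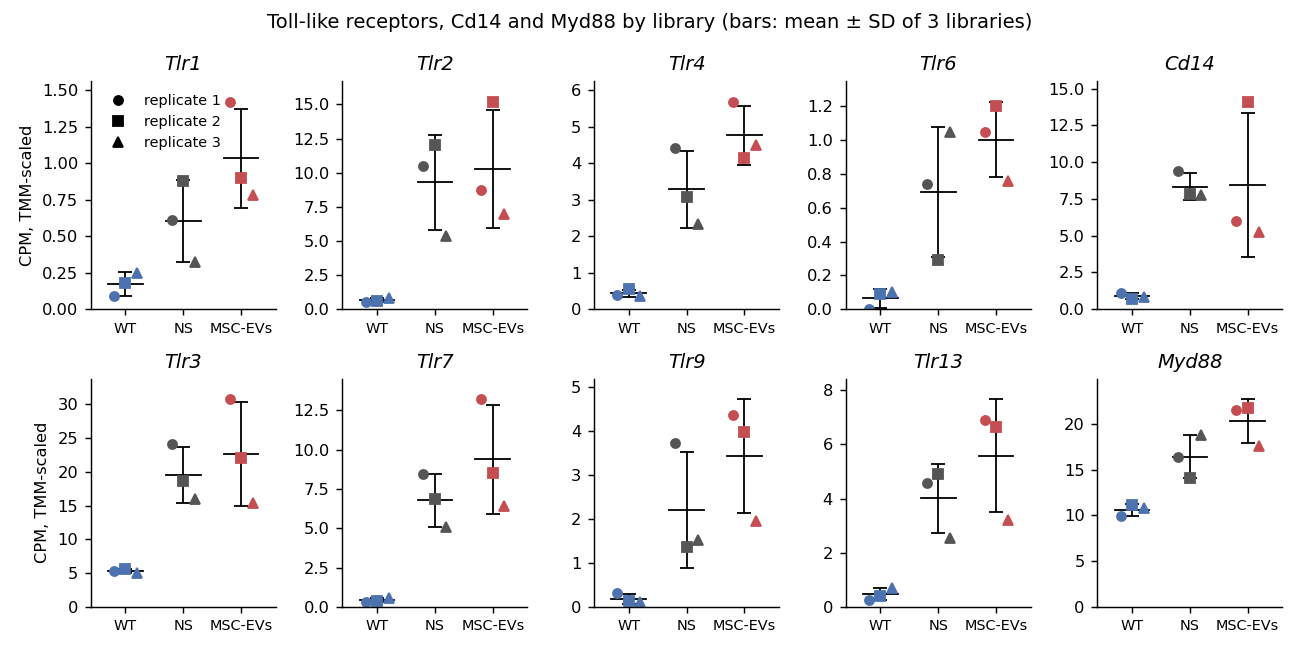
TMM-scaled CPM of each gene in every library, with surface receptors and Cd14 in the upper row, endosomal receptors and Myd88 in the lower row, and the mean ± SD of 3 libraries per group as bars. In each panel the 3 NS-treated libraries lie above the 3 WT libraries, while the MSC-EVs-treated libraries overlap the NS-treated ones; the y axes start at 0 and differ between panels.

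Tlr1 and Tlr6, the partners of Tlr2, were near the detection limit in WT and did not pass the filter between WT and NS-treated rd10. Tlr1 had estimated counts of 2, 4 and 5 in the WT libraries against 18, 18 and 7.24 in the NS libraries. Tlr6 had 0, 2 and 2 against 22, 6 and 22.76. Every NS library was above every WT library for each gene. The ratio of summed CPM in NS-treated rd10 against WT was 3.52 for Tlr1 (exact 95% interval 1.78 to 7.56, on 43 and 11 rounded counts) and 11.5 for Tlr6 (4.21 to 43.7, on 51 and 4). These intervals cover counting error only.

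The pair lie next to each other on chromosome 5, Tlr1 from 64924679 to 64933563 and Tlr6 from 64952031 to 64960097, both on the minus strand. They share 454 stretches of 50 bases, 13.6% of those of Tlr1 and 12.3% of those of Tlr6, so reads from these stretches can be assigned to either gene. In NS replicate 3 the estimated counts of the pair, 7.24 and 22.76, were not whole but summed to 30. The split between Tlr1 and Tlr6 is therefore uncertain, and the pair was also tested as a single feature, an alternative chosen after the data were seen. Summed, they had 0.09, 0.27 and 0.35 CPM in WT and 1.35, 1.18 and 1.37 CPM in NS-treated rd10. Their summed log2 fold change was 2.46 (SE 0.415, adjusted p = 0.000274).

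The bases before the RefSeq transcription starts of the genes are shown for those with motif matches. Only starts whose following bases also occur in a GENCODE transcript of the gene are shown, which need not be where that transcript begins. On the minus strand, GENCODE begins Tlr2 at 83841767, inside its window, and Tlr3 at 45411080 and Myd88 at 119341411, both before theirs. Those windows thus lie partly or wholly within the GENCODE genes, and distances are given from the RefSeq start. RefSeq entries on GRCm38.p6 were found for 7 of the 10 genes, with 2 starts each for Tlr1 and Tlr6, and none was used for Tlr4, Tlr7 and Cd14. Motifs of immune transcription factors were searched on both strands in the 250 bases before each start: NF-kB (by its name alone, as its motif holds variable bases), the AP-1 motif TGANTCA, the interferon-stimulated response element GAAANNGAAA and the PU.1 motif GAGGAAGT. Of 32851 such windows in the reference, 7.25% held the NF-kB motif, 6.75% the AP-1 motif, 2.98% the interferon element and 2.44% the PU.1 motif. Each sequence runs 5′ to 3′ on the strand of its gene and ends at the base before the start, with matches in capitals.
Tlr2, chr3:83841609-83841858, minus strand: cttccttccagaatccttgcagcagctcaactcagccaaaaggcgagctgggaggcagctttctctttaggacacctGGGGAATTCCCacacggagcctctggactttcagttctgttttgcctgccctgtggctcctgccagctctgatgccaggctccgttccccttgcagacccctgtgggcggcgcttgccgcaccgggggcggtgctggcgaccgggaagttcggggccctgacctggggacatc
Tlr3, chr8:45410381-45410630, minus strand: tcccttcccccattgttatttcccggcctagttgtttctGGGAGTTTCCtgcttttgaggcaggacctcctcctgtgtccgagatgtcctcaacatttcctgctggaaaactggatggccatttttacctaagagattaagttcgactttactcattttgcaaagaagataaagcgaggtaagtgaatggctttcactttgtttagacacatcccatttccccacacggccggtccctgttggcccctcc
Tlr9, chr9:106222348-106222597, plus strand: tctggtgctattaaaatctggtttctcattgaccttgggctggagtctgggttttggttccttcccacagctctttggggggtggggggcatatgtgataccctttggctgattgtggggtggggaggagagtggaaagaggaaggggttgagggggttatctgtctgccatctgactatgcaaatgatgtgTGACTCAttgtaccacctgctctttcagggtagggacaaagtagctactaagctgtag
Myd88, chr9:119340019-119340268, minus strand: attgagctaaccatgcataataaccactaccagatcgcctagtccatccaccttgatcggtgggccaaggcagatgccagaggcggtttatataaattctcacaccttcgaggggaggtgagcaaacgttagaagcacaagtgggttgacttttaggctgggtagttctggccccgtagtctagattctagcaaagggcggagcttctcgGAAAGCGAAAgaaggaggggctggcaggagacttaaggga
In Tlr2 the capitals are overlapping NF-kB matches whose first bases lie at -173 and -172 from the start. Tlr3 had an NF-kB match at -211, Tlr9 an AP-1 match at -58 and Myd88 an interferon element at -40. Tlr13 had no match to these motifs. At 1 start of Tlr1 a PU.1 match lay at -23, and at 1 start of Tlr6 overlapping interferon elements lay at -116 and -110 on the other strand. A match is a run of letters and was not tested for binding.

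To set levels of different genes side by side, FPKM were used, which scale to transcript length. In WT, Myd88 had the highest mean level with 4.99 ± 0.299 FPKM (SD, n = 3), followed by Tlr3 with 1.31 ± 0.227 FPKM, Cd14 with 0.50 ± 0.101 FPKM and Tlr2 with 0.193 ± 0.0416 FPKM. Each of these 4 lay apart from the next in the order. Tlr7, Tlr13, Tlr4, Tlr1, Tlr9 and Tlr6 followed with means from 0.103 down to 0.02 FPKM, each overlapping the next.

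In NS-treated rd10, Myd88 again had the highest mean, 8.75 ± 1.28 FPKM, and the genes that followed it kept their order down to Tlr4, but the gaps between neighbours differed. Tlr3, at 5.71 ± 1.35 FPKM, and Cd14, at 5.30 ± 0.549 FPKM, now overlapped, and so did Tlr2, at 3.21 ± 1.19 FPKM, and Tlr7, at 1.89 ± 0.46 FPKM. Tlr13, Tlr4, Tlr9, Tlr6 and Tlr1 followed from 1.03 ± 0.321 down to 0.23 ± 0.10 FPKM without a gap between neighbours. In MSC-EVs-treated rd10 the same 5 genes led in the same order, from Myd88 with 10.7 ± 1.29 FPKM to Tlr7 with 3.06 ± 1.20 FPKM. Neighbours among these 5 overlapped. Tlr7 lay narrowly apart from Tlr13, the next gene, with a lowest value of 1.77 FPKM against a highest of 1.76 FPKM.

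The summed FPKM of the 8 receptors was 1.86 to 2.05 in WT, 9.96 to 17.4 in NS-treated rd10 and 11.5 to 22.6 in MSC-EVs-treated rd10. Tlr3 made up 75.6%, 67.6% and 59.1% of that sum in the WT libraries and 40.9%, 38.4% and 44.5% in the NS libraries. Tlr2 went from 7.80%, 9.57% and 12.9% of the sum in WT to 20.7%, 28.5% and 18.8% in NS-treated rd10, and Tlr7 from 3.90%, 5.32% and 6.99% to 13.4%, 13.1% and 14.3%. The shares of Tlr3, Tlr2 and Tlr7 did not overlap between WT and NS-treated rd10, while those of Tlr1, Tlr4, Tlr6, Tlr9 and Tlr13 did. The shares of a library are parts of the same sum, so they do not move independently. The endosomal receptors together held 76.3% to 86.3% in WT, 63.0% to 70.0% in NS-treated rd10 and 64.0% to 75.7% in MSC-EVs-treated rd10. These shares are descriptions without a test.

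The FPKM of a gene also moves with the transcript length the authors' program assigned in each library. CPM without the TMM factors, divided by FPKM, give this length back. This was 1.96 kb for Myd88 in each of the 9 libraries, but 3.30 and 2.71 kb for Tlr7 in MSC-EVs replicates 1 and 2 against 3.62 to 3.90 kb in the other libraries. For Tlr6, at its low counts, it ran from 1.1 to 4.17 kb. The FPKM of Tlr7 in those MSC-EVs libraries are raised by this against its CPM. For Tlr3 it was 3.18 kb in WT replicate 1 against 4.11 and 4.19 kb in the other WT libraries, and 3.22 to 3.77 kb in rd10. The FPKM of Tlr3 in WT replicate 1, and its share of 75.6% there, are likewise raised against its CPM.

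**Figure D2:**
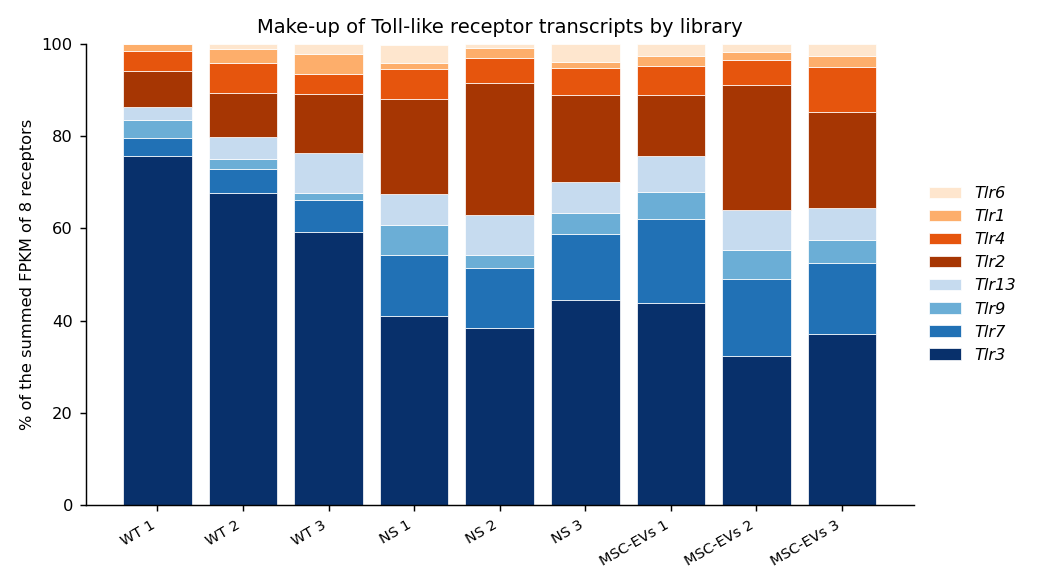
Share of each of the 8 receptors in their summed FPKM, in percent, by library, with endosomal receptors in blue and surface receptors in orange. Tlr3 takes 59.1% to 75.6% of the sum in WT and 32.2% to 44.5% in the 6 rd10 libraries, and Tlr2 and Tlr7 take larger shares in rd10 than in WT.

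In bulk retina, more cells of a type and more RNA per cell cannot be told apart, so markers of the cells that carry these receptors were read in the same libraries. The 15 microglia and macrophage markers, such as Aif1, Cx3cr1 and C1qa, summed to 82.7 to 89.1 CPM in WT, 498 to 615 CPM in NS-treated rd10 and 404 to 717 CPM in MSC-EVs-treated rd10. Between WT and NS-treated rd10, 15 of 15 were called higher, with a median log2 fold change of 3.54 and a range from 1.08 (Cx3cr1) to 4.37 (Cd68). Markers of monocytes and neutrophils moved as well, though at lower levels, from 0.851 to 1.00 CPM summed in WT to 7.94 to 17.3 CPM in NS-treated rd10. Of these 10 markers, 3 passed the filter and were called higher, and Elane, a defining neutrophil protease, was at 0 in every library. At so low a sum in WT, they could pass mainly through the NS group, so this count is no support for a direction. Among all genes tested between these groups, 31.2% were called higher. The 6 lymphocyte markers summed to at most 2.09 CPM in any library. The part of these cells in the changes of the receptors was not tested.

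Relative to the microglia and macrophage markers the receptors did not move as a block. Per 1000 CPM of summed markers, Tlr2 had 6.04, 7.04 and 9.32 CPM in WT and 17.1, 20.9 and 10.7 CPM in NS-treated rd10. Tlr7 went from 3.52, 4.87 and 6.41 to 13.7, 12 and 10.2 CPM, and Cd14 from 12.1, 8.66 and 9.91 to 15.3, 13.7 and 15.5 CPM. For these 3 genes, every NS library was above every WT library also on this scale. Their fitted log2 fold changes, 3.86, 4.01 and 3.23, lay within the range of the markers themselves, 1.08 to 4.37. The scale depends on the markers used. In each library the median of the log2 ratios to the markers was taken over 9 of the genes, without Tlr6. The gene at the median was not the same in every library, so a shift of this median is not the typical change of a gene. The group mean of this median rose by 0.94 between WT and NS with the summed markers. It rose by 0.59 with the median marker and by 1.31 without C1qa, C1qb and C1qc.

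Tlr3 and Myd88 went the other way on this scale. Tlr3 went from 59.9, 67.7 and 58.3 CPM per 1000 marker CPM in WT to 39.3, 32.4 and 31.9 CPM in NS-treated rd10, and Myd88 from 111, 134 and 125 to 26.7, 24.6 and 37.7 CPM. Tlr1, Tlr4, Tlr6, Tlr9 and Tlr13 overlapped between the groups. Of all 14644 genes tested between these groups, divided by the same marker sum, 1.43% had every NS library above every WT library and 95.8% every NS library lower, so a lower value on this scale was the common case. The MSC-EVs libraries overlapped the NS libraries in 10 of 10 genes, where 3.91% of all genes lay apart. With 3 libraries against 3 these ratios are descriptions, and no test was run on them.

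**Figure D3:**
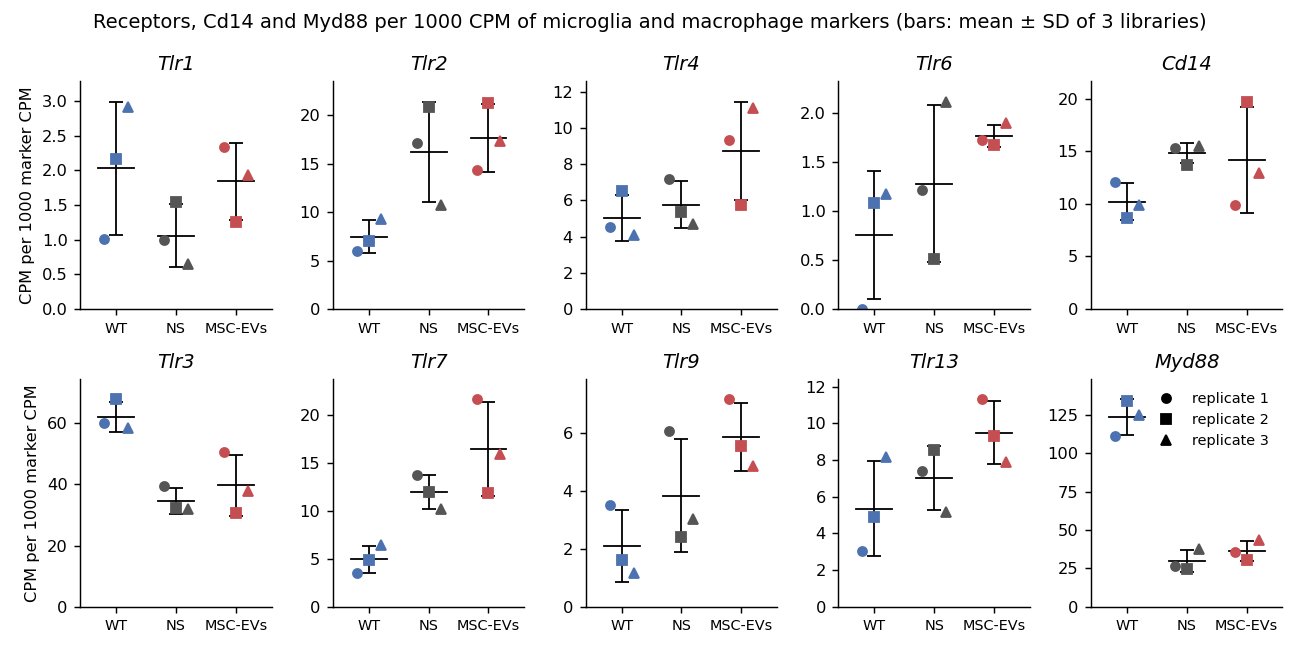
CPM of each gene per 1000 CPM of the 15 summed microglia and macrophage markers, by library, with the mean ± SD of 3 libraries as bars and y axes that start at 0. Tlr2, Tlr7 and Cd14 lie above WT in NS-treated rd10, Tlr3 and Myd88 lie lower, and the other 5 genes overlap between WT and NS-treated rd10.

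The comparison of the treatment asked whether MSC-EVs moved these genes in the rd10 retina. None of the 10 was called in MSC-EVs-treated against NS-treated rd10, and the MSC-EVs libraries overlapped the NS libraries in each of them. Of the 14765 genes tested, 1.16% were called, 0.914% as higher and 0.251% as lower, and in 26.3% the groups did not overlap. By an unadjusted p under 0.05, 1 of the 10, Myd88, would have been counted, against 20.2% of all genes. That count ran from 0 to 4 over the settings tried, being 4 with the replicate block, 3 without MSC-EVs replicate 3 and 0 without MSC-EVs replicate 1. The share of 20.2% belongs to the main fit, and those of the other settings are not given here, so nothing is read from these counts. The DESeq2 Wald test, edgeR's exact test and limma on FPKM likewise called 0 of the 10.

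The fitted log2 fold changes ran from 0.00 for Cd14 to 0.75 for Tlr1. Myd88 had 21.6, 21.8 and 17.6 CPM in MSC-EVs-treated rd10 against 16.4, 14.1 and 18.8 CPM in NS-treated rd10. The third MSC-EVs library fell within the NS range, and the log2 fold change was 0.31 (95% interval 0.02 to 0.60, unadjusted p = 0.0396, adjusted p = 0.222). Myd88 was thus higher in 2 of 3 libraries than any NS library, without passing the correction.

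Of the surface receptors, Tlr4 had 5.69, 4.14 and 4.49 CPM with MSC-EVs, and 2 of these lay above the highest NS library. Its log2 fold change was 0.53 (95% interval -0.03 to 1.09, adjusted p = 0.268). Tlr2, with 8.70, 15.2 and 6.97 CPM, gave 0.14 (95% interval -0.83 to 1.11, adjusted p = 0.885). The interval for Tlr2 therefore holds folds from 0.564 to 2.15, and a change of that size could not be seen here.

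Cd14 stood apart in its spread within the MSC-EVs group. It had 6.02, 14.1 and 5.21 CPM, so that replicates 1 and 3 lay under and replicate 2 above all 3 NS libraries. The mean, 8.46 ± 4.94 CPM (SD, n = 3), was close to that of NS-treated rd10, 8.33 ± 0.93 CPM, with a log2 fold change of 0.00 (95% interval -0.94 to 0.95, adjusted p = 0.997). Leaving out the high library, MSC-EVs replicate 2, gave -0.57 (adjusted p = 0.0793).

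The endosomal receptors also overlapped the NS libraries. Tlr3 had 30.7, 22.0 and 15.3 CPM (log2 fold change 0.20, 95% interval -0.48 to 0.88, adjusted p = 0.74). Tlr7 had 13.2, 8.54 and 6.44 CPM (0.45, -0.22 to 1.12, adjusted p = 0.428), Tlr9 had 4.35, 3.97 and 1.96 CPM (0.59, -0.47 to 1.65, adjusted p = 0.516) and Tlr13 had 6.90, 6.66 and 3.19 CPM (0.46, -0.35 to 1.27, adjusted p = 0.509). Tlr9 had an estimate of 1.23 without NS replicate 1 (adjusted p = 0.148). In each of the 4 the third MSC-EVs library was the lowest of its group.

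That split between the MSC-EVs libraries ran through most of the 10 genes. Replicates 1 and 2 were both above every NS library for Tlr1, Tlr7, Tlr9, Tlr13 and Myd88. Replicate 3 lay above the NS range for 1 gene (Tlr4), within it for 7 and under it for 2 (Tlr3 and Cd14). Replicates 1 and 2 were also the libraries with Y-linked transcripts, and replicate 3 was the deepest library and had the lowest microglia and macrophage marker sum of the 6 rd10 libraries. When the Y-linked sum of each library entered the fit as a covariate, 0 of the 10 genes were called, and the point estimates of Tlr2, Tlr3, Tlr7, Tlr9, Tlr13 and Cd14 turned negative (down to -0.66 for Cd14). Only replicate 3 of the MSC-EVs libraries had a low Y-linked sum, so these estimates rest mostly on that library against NS.

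Tlr1 had 34, 21 and 50 counts and Tlr6 25, 28 and 49 in MSC-EVs-treated rd10, and both passed the filter between the rd10 groups. Their log2 fold changes were 0.75 (95% interval -0.19 to 1.69, adjusted p = 0.351) and 0.48 (-0.48 to 1.44, adjusted p = 0.571). Summed as 1 feature they had 2.47, 2.09 and 1.54 CPM, each above the NS libraries (1.35, 1.18 and 1.37 CPM). The summed change was 0.63 (95% interval 0.02 to 1.23, unadjusted p = 0.0429, adjusted p = 0.229) and did not pass the correction.

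**Figure D4:**
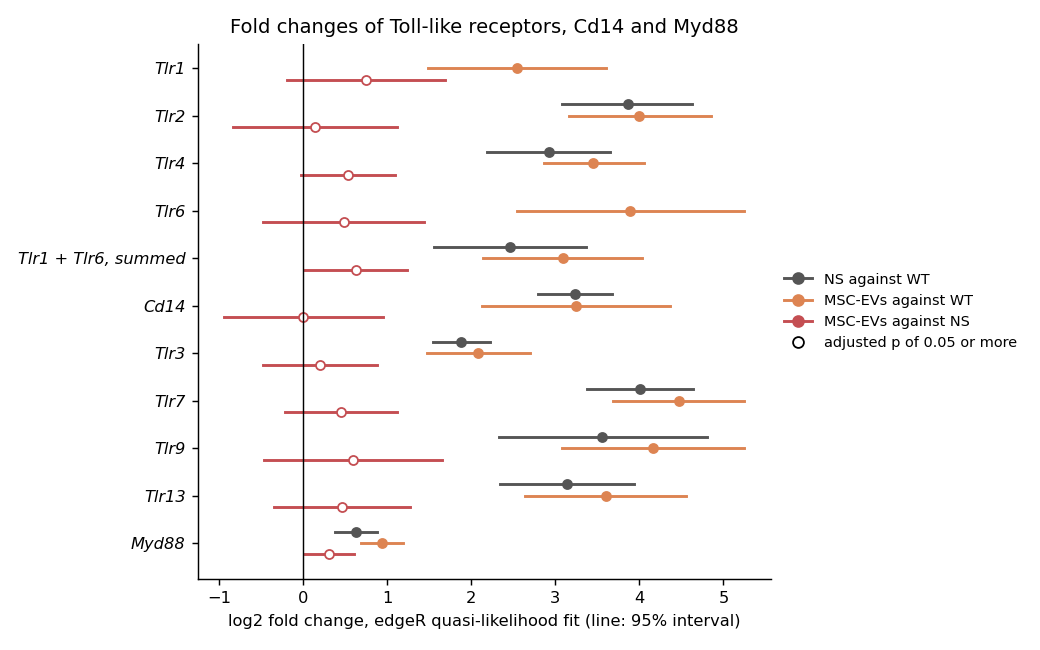
Log2 fold changes from edgeR's quasi-likelihood fit with 95% intervals for the 3 comparisons, with open circles where the adjusted p was 0.05 or more. Changes against WT lie between 0.63 and 4.47 and are filled, changes between the rd10 groups lie between 0.00 and 0.75 and are open, and Tlr1 and Tlr6 have no fit between NS and WT; the fitted value of Tlr6 against WT rests on 4 WT counts.

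Against WT, the MSC-EVs-treated rd10 retinas held all 10 genes at a higher level. Each of the 10 was called, against 55.5% of the 14623 genes tested and 28.3% called as higher. Several of them, such as Tlr1, Tlr6 and Tlr9 with 0 to 7 counts in the WT libraries, were tested through the MSC-EVs libraries, where they are high, so this count is no support either. With at least 10 counts required in every library, 4 genes were tested and 4 called, again without the share of all genes under that filter. The log2 fold change ran from 0.94 for Myd88 (SE 0.113, adjusted p = 8.79e-05) to 4.47 for Tlr7 (SE 0.35, adjusted p = 1.06e-05). Tlr2 changed by 4.0 (SE 0.369, adjusted p = 4.88e-05), Tlr4 by 3.45 (SE 0.268, adjusted p = 6.21e-06), Tlr3 by 2.08 (SE 0.26, adjusted p = 0.000494) and Cd14 by 3.25 (SE 0.473, adjusted p = 0.00103). Tlr9 and Tlr13 had 4.16 and 3.60. Tlr9 had 4.79 without WT replicate 1 (adjusted p = 0.000473), and Cd14 had 2.66 without MSC-EVs replicate 2 (adjusted p = 2.66e-06). For Tlr1 and Tlr6 the ratio of summed CPM against WT was 5.52 (exact 95% interval 2.96 to 11.4) and 14.8 (5.59 to 55.2). This comparison shares its WT libraries with the first and its MSC-EVs libraries with the second, so the 3 are not independent.

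The other mouse receptors of the family were Tlr8, Tlr5, Tlr11 and Tlr12. Tlr8, a neighbour of Tlr7 on chromosome X that also senses single-stranded RNA, had 0, 0 and 1 counts in the WT libraries, 41, 22 and 9 with NS and 65, 64 and 39 with MSC-EVs. It was not tested between WT and NS-treated rd10, where the ratio of summed CPM was 64.8 with an exact 95% interval of 11.3 to 2590, and between the rd10 groups its log2 fold change was 1.00 (SE 0.658, adjusted p = 0.445). Tlr5, the flagellin receptor, had 2 to 10 counts in WT, 9 to 20 in NS-treated rd10 and 7 to 21 in MSC-EVs-treated rd10, and its groups overlapped. Tlr11 had at most 3 and Tlr12 at most 4 counts in any library.

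The wider pathway was read from a list of 61 genes by role, of which 49 were tested between WT and NS-treated rd10. Of these, 30 were called higher and 9 lower, against 31.2% higher and 30.1% lower among all genes tested. The median log2 fold change of the list was 0.96, and that of all genes was 0.01. Several of the genes called higher, such as Ticam2, Ccl2 and Cxcl1, had at most 3 counts in any WT library. They passed the filter through the NS group, where they are high. Neither the count of 30, the median nor the higher counts by role are therefore support for a direction. The values by role are those of NS-treated rd10 against WT.

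Among co-receptors, chaperones and carriers, 5 of 9 were higher and 1 lower. Unc93b1, which brings the endosomal receptors to their compartment, had 1.53, 1.48 and 2.20 CPM in WT and 20.4, 15.4 and 13.8 CPM in NS-treated rd10 (log2 fold change 3.26, SE 0.20, adjusted p = 8.26e-08). Ly86, the partner of the receptor-like protein Cd180, changed by 3.12 (SE 0.168, adjusted p = 2.25e-08). Cnpy3, a chaperone of the receptors, was the gene called lower, from 56.1 to 62.0 CPM in WT to 47.1 to 50.1 CPM in NS-treated rd10 (-0.27, SE 0.063, adjusted p = 0.00245).

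Among adaptors and kinases, 8 of 15 were higher and 2 lower. Ticam2, the bridging adaptor of Tlr4, had 2, 3 and 1.3 estimated counts in the WT libraries against 51.85, 23 and 18 in the NS libraries, and its ratio of summed CPM was 13.9 (exact 95% interval 6.17 to 39.0). It shares 14.7% of its 50-base stretches with other genes, mostly Tmed7. Ikbke, a kinase upstream of interferon regulatory factors, changed by 2.13 (SE 0.466, adjusted p = 0.00177). Tab3 and Tab1, partners of the kinase Map3k7, were lower with -0.55 (SE 0.074, adjusted p = 4.95e-05) and -0.20 (SE 0.073, adjusted p = 0.0291).

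The interferon regulatory factors went in different directions. Irf7 had 11.4, 12.7 and 11.7 CPM in WT and 105, 60.3 and 66.6 CPM in NS-treated rd10 (2.70, SE 0.257, adjusted p = 0.000281), and Irf5 changed by 2.35 (SE 0.252, adjusted p = 7.11e-06). Irf3, which acts behind Tlr3 and Tlr4, was lower, from 26.5, 32.1 and 29.5 to 17.1, 17.2 and 15.8 CPM (-0.81, SE 0.092, adjusted p = 1.08e-05). Irf5 shares 11.0% of its 50-base stretches with Tnpo3 on the other strand.

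Inhibitors of the pathway were split, with 3 of 9 higher and 5 lower. Tnfaip3, an enzyme that edits ubiquitin and restrains NF-kB, had 405, 364 and 380 CPM in WT and 76.6, 74.3 and 64.2 CPM in NS-treated rd10. This was the largest change toward lower levels in the list (-2.42, SE 0.076, adjusted p = 5.62e-10). Sarm1, a negative adaptor that is also known as an axon degeneration enzyme, was lower, with a log2 fold change of -1.20 (SE 0.061, adjusted p = 1.51e-08). The rod markers changed by -2.28 to -1.16 in the same comparison, and the part of rod loss in the changes of Tnfaip3 and Sarm1 was not tested. Irak3, a kinase-like protein that restrains receptor signalling in macrophages, was higher by 1.56 (SE 0.23, adjusted p = 9.69e-05), and Socs1, an inhibitor of cytokine signalling, by 1.31 (SE 0.35, adjusted p = 0.0062).

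Of the endogenous ligands, 5 of the 6 tested were higher and 0 lower. Biglycan (Bgn) and versican (Vcan), matrix proteoglycans that can bind Tlr2 and Tlr4, changed by 1.52 (SE 0.294, adjusted p = 0.00252) and 1.36 (SE 0.203, adjusted p = 0.000106). Of 13 target genes, 7 were tested and 7 were called higher. Ccl2, Cxcl1, Ccl5 and Il1b, the last 2 named after their values were seen, had at most 3 counts in any WT library and passed the filter through the NS group, so nothing is read from that count. The chemokines Ccl2 and Cxcl1 each had 1 count over the 3 WT libraries, against 124 and 105 counts in NS-treated rd10. Their ratios of summed CPM were 112 (exact 95% interval 19.6 to 4440) and 94.4 (16.6 to 3760).

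Between MSC-EVs-treated and NS-treated rd10, 51 genes of the list were tested, and 1 was called, Tirap, as higher. With 0.914% of all genes called as higher, a single gene of 51 is near the background. Tirap is the adaptor that links Tlr2 and Tlr4 to Myd88. It had 15.6, 15.6 and 15.2 CPM in WT, 17.4, 19.5 and 19.9 CPM in NS-treated rd10 and 32.4, 31.2 and 26.4 CPM in MSC-EVs-treated rd10. Every MSC-EVs library was above every NS library, with a log2 fold change of 0.67 (SE 0.105, adjusted p = 0.0261).

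The estimate for Tirap lay between 0.49 and 0.75 over the 19 settings tried, which were added for this gene after the data were seen, but the call did not hold in each. The adjusted p rose to 0.0544, 0.0851 and 0.162 without NS replicate 1, 2 or 3, to 0.149 without MSC-EVs replicate 1, to 0.0987 when the Y-linked sum was a covariate and to 0.157 with limma on log2(FPKM + 1) without a filter. Tirap also shares 9.7% of its 50-base stretches with other genes, mostly the antisense gene Gm39318. Irak3, named here after its values were seen, had 2.84, 2.84 and 2.70 CPM in NS-treated and 4.68, 5.17 and 4.68 CPM in MSC-EVs-treated rd10, and its log2 fold change of 0.80 (SE 0.169, adjusted p = 0.0582) did not pass the threshold. Against WT, MSC-EVs-treated rd10 had 31 of 49 tested genes of the list higher and 7 lower, where 28.3% and 27.2% of all genes tested were. Several of these, such as Ticam2 and Cxcl1, passed the filter through the MSC-EVs libraries, so the count of 31 is no support for a direction.

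**Figure D5:**
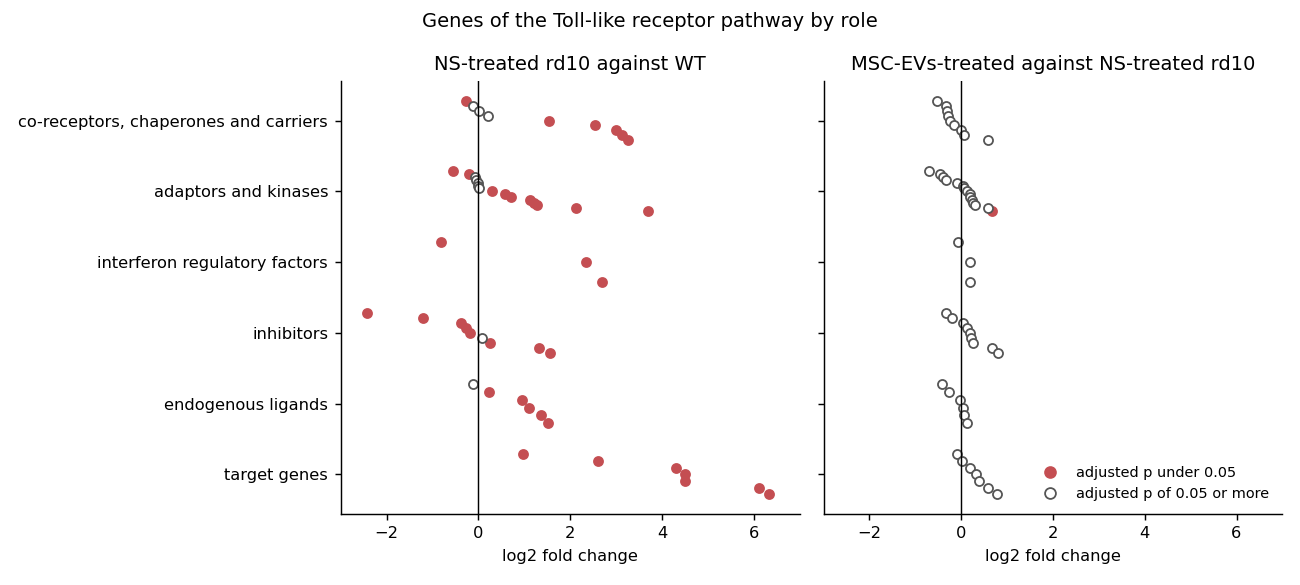
Fitted log2 fold changes of the listed pathway genes by role, without the other Toll-like receptors, each point a gene, filled where the adjusted p was under 0.05, for NS-treated rd10 against WT (left) and MSC-EVs-treated against NS-treated rd10 (right). On the left, 39 genes are filled, with Tnfaip3 farthest to the lower side, and on the right 1 gene, Tirap, is filled; points above 6 are genes with 1 count over the WT libraries, whose fitted value is no bound.

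The genes most like the 10 were sought by the correlation of their log2 CPM with the mean standardised profile of the 10 over all 9 libraries. The 5 closest were Entpd1, a microglial enzyme that degrades extracellular ATP (Pearson's r = 0.997), Mmp14, a membrane-bound matrix protease (0.997), Ifi207, an interferon-inducible gene (0.996), Csf2rb2, a receptor chain for interleukin-3 (0.996), and Trim30a, a regulator of innate signalling (0.995). Over the 6 rd10 libraries alone, r was 0.993, 0.994, 0.99, 0.943 and 0.942 for the same genes. Entpd1 had 5.25, 5.33 and 5.41 CPM in WT, 14.9, 13.4 and 13.2 CPM in NS-treated rd10 and 17.9, 17.4 and 14.2 CPM in MSC-EVs-treated rd10. The points share libraries and depth and are mostly set by the difference between WT and rd10, so r is a description. Csf2rb2, Ifi207 and Trim30a share 18.9%, 7.3% and 6.0% of their 50-base stretches with other genes.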

How the data were processed

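RNA of whole retinas, enriched for mRNA with oligo(dT), was sequenced by the authors, and 1 table of the series was used. For each gene the authors deposited estimated counts and FPKM in every library. Their processing notes name fastp, Bowtie2, HISAT2, StringTie 1.3.1 and RSEM; the genome build and annotation are not given in the sources used here. Between 9.16% and 11.7% of genes per library had counts with decimals. The design had assumed whole counts, so the deposited estimated counts were rounded before the test.

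Each pair of groups was fitted on its 6 libraries over the whole table with edgeR 4.0.16 in R 4.3.3 (filterByExpr defaults, TMM, glmQLFit with robust estimation, glmQLFTest), and SE is the absolute log2 fold change divided by the square root of F. TMM factors lay between 0.92 and 1.052. The fits were also run on simulated data. The outcome is not given here, so that run is no support for the values above. Levels between genes were compared with the deposited FPKM. Positions came from GENCODE M21 (GRCm38) and promoters from RefSeq (GRCm38.p6); a stretch is a run of 50 transcript bases found in another gene. Alternatives used limma 3.58.1 on log2(FPKM + 1) or log2(FPKM + 0.1), with a filter of 0.1 FPKM in 3 libraries or none, and DESeq2 1.42.0. Groups came from the sample titles, and the table's columns were matched to them by name. The genes, lists and tests were chosen with earlier results of these data known. All 10 genes were to be named, with at most 2 pathway genes per role and direction in each comparison, the other Toll-like receptors and the 5 most similar genes. Of the marker lists not given in the text, between WT and NS-treated rd10, 4 of 5 endothelial, 2 of 5 retinal pigment epithelium, 5 of 6 Müller glia and 2 of 4 tested fibroblast and mural markers were called higher, and between the rd10 groups 0 of each. Among all genes tested, 31.2% were called higher between WT and NS-treated rd10, and 1.16% were called between the rd10 groups, so nothing is read from these counts. One rod marker of the list is not reported here.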

Additional observations from a re-analysis of the deposited data

How the results depend on the processing

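The count of the 10 genes called stayed at 8 (NS against WT), 0 (MSC-EVs against NS) and 10 (MSC-EVs against WT) with a replicate block. Deviations of same-numbered libraries correlated at 0.065, -0.074 and -0.055 between WT and NS. Between NS and MSC-EVs they correlated at 0.089, 0.197 and 0.284, against -0.222 to -0.002 for unlike numbers, so each library correlated best with its own number. The paper says that rd10 littermates received MSC-EVs or saline, but not which libraries shared a litter. A pairing between the rd10 groups is therefore not settled. With the block, the count at an unadjusted p under 0.05 there went from 1 to 4, without the share of all genes in that fit, so nothing is read from it. Without each library in turn the counts were 8 to 10, 0 to 0 and 10 to 10. With at least 10 counts required in every library, 4 genes were called in NS and 4 in MSC-EVs against WT, since fewer were tested. With a limit of 1 on the log2 fold change, the lower pathway genes went from 9 to 2 (NS against WT) and from 7 to 2 (MSC-EVs against WT), and the higher pathway genes between the rd10 groups from 1 to 0. Tlr9 between WT and NS had 0.64 and an adjusted p of 0.0657 with limma on log2(FPKM + 1) without a filter. Between the rd10 groups, where no gene was called, the sign turned with the Y-linked covariate for Tlr2 (-0.40), Tlr3 (-0.34), Tlr7 (-0.06), Tlr9 (-0.15), Tlr13 (-0.32) and Cd14 (-0.66). Cd14 also turned with upper-quartile factors (-0.03), all 9 libraries in a single fit (-6.4e-05), the block (-0.12), limma on log2(FPKM + 1) with a filter or without (-0.10) and on log2(FPKM + 0.1) (-0.13). Leaving out each library, Tlr2 ranged from -0.25 to 0.37, Tlr3 from -0.07 to 0.43 and Cd14 from -0.57 to 0.27. The cause was not tested. Depth limits Tlr1, Tlr6 and Tlr9 in WT, at 0 to 7 counts per library.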

Other observations

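MSC-EVs replicate 2, which had the highest Cd14 and Tlr2 of the 9 libraries, also had the highest levels of chemokines downstream of the receptors. Ccl2 had 0.627, 5.64 and 0.342 CPM in the MSC-EVs libraries and 2.23, 2.01 and 0.778 CPM in the NS libraries. Cxcl1 had 0.753, 6.19 and 0.840 CPM against 1.59, 1.47 and 1.28 CPM. Cxcl10, an interferon-induced chemokine chosen after its values were seen, had 6.57, 16.7 and 2.72 CPM with MSC-EVs against 7.23, 9.90 and 5.17 CPM with NS. In each of these the NS range lay within that of the MSC-EVs libraries, and none was called between the rd10 groups (adjusted p = 0.914, 0.678 and 0.913 for Ccl2, Cxcl1 and Cxcl10 by edgeR's quasi-likelihood test). Tnf, also chosen after its values were seen, had 0 counts in WT and 3 to 8 counts in each rd10 library and was not tested.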
